A study of Mus musculus with 6 samples.

Results

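The regions described here are dense clusters of PU.1 peaks in induced iBN cells. Neighbouring peaks of the authors' merged list of the induced condition were stitched when the gap between them was 12.5 kb or less, and every stitched group of 5 or more peaks was taken as a cluster. The 71582 peaks of that list formed 28720 stitched groups, of which 3748 (13.1%) were clusters, and these held 30853 peaks (43.1%), called member peaks or positions below. The other 40729 peaks lay in groups of 1 to 4. Called peaks of induced cells chose the clusters, so the numbers of induced peaks in them are a description, whereas the peaks of the uninduced libraries had no part in the choice. The name "induced" therefore means called after induction and not absent before it.

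PU.1, a transcription factor of the ETS family, binds DNA around a purine-rich core and acts in a dose-dependent way in myeloid and B-lymphoid cells. It can open chromatin at enhancers, where it often binds together with C/EBP, AP-1 or RUNX factors. Runs of closely spaced binding sites are a known feature of strong enhancers near genes of cell identity, and stitching of neighbouring peaks is the usual way to find them.

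The series measured PU.1 binding by ChIP-seq with a polyclonal anti-PU.1 antibody (T-21) in mouse iBN cells, which the labels class as granulocyte-macrophage progenitors. All the cells carried a PU.1-inducible system and grew with GM-CSF. Induced cells had received doxycycline at 1000 ng per ml for 72 hours and uninduced cells had not. Each condition had 2 libraries with a peak list each, and 1 merged list, all in mouse build mm9. The labels do not say whether the line is 1 clone or whether the 2 libraries of a condition were prepared from independent cultures, and p-values measure only the spread between these libraries, technical or not. The lists held 68076 and 57336 peaks in induced replicates 1 and 2, and 31960 and 42951 in uninduced replicates 1 and 2. Read depth is unknown, and list length moves with the condition in every comparison below. Its part in the differences was tested only as far as lists of equal length go. No gene annotation or genome sequence of mm9 was used here, so clusters are named by position, counted from 1.

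Clusters were found on 19 autosomes and on X. A cluster spanned a median of 35.0 kb (quartiles 25.8 and 50.5 kb, range 7.38 to 255 kb), and all clusters together spanned 156 Mb. The median cluster held 7 merged induced peaks and the largest held 44. There were 2217 clusters of 5 to 7 peaks, 947 of 8 to 11 and 584 of 12 or more. Neighbouring peaks in a cluster were a median of 3.16 kb apart (quartiles 1.18 and 6.44 kb), and peaks covered a median of 28.4% of a cluster's span. Just inside the size limit lay 1049 groups of 5 peaks and just outside it 1532 groups of 4. In the last 1 kb below the gap limit lay 1471 gaps, and in the first 1 kb above it 1277.

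The clusters were already sites of PU.1 binding in most cases before induction, but with fewer peaks. Induced replicate 1 had 29538 peaks in the clusters, induced replicate 2 had 25432, uninduced replicate 1 had 11901 and uninduced replicate 2 had 17691. Per cluster this gave means of 7.88 and 6.79 peaks after induction against 3.18 and 4.72 before it. Both induced libraries were above both uninduced ones, with 27485 ± 2903 peaks against 14796 ± 4094 (mean ± SD, n = 2 each) and a ratio of 1.86. Outside the clusters the ratio was 1.55. Cluster sequence covered by peaks came to 38.0 and 30.0 Mb after induction and to 13.2 and 18.7 Mb before it, and the ratio of the means was 2.13. For the length covered outside the clusters the ratio was 1.79. Permuting the libraries (exact test, two-sided) gave p = 0.333 for the number of peaks and for the covered length, the smallest value that 2 libraries against 2 allow. Because the clusters were chosen on induced peaks, part of the ratios of 1.86 and 2.13 is set by the choice.

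As a share of each list, the clusters held 43.4% (95% Wilson interval 43.0 to 43.8%) of the peaks of induced replicate 1 and 44.4% (43.9 to 44.8%) of those of induced replicate 2. They held 37.2% (36.7 to 37.8%) of the peaks of uninduced replicate 1 and 41.2% (40.7 to 41.7%) of those of uninduced replicate 2. The intervals cover counting error only. The induced shares were both above the uninduced shares, and the 2 uninduced libraries differed from each other by more than uninduced replicate 2 did from induced replicate 1. That order depends on the list that chose the clusters. Clusters chosen on the merged uninduced list held 12.8 and 14.1% of the induced and 17.4 and 17.5% of the uninduced lists, the opposite order. Clusters chosen on induced replicate 2 alone held 29.1% of induced replicate 1, between the 27.5 and 30.3% of uninduced replicates 1 and 2. Clusters chosen on induced replicate 1 alone held 40.9% of induced replicate 2 against 34.9 and 38.6%. In each of the 4 libraries, the median score was higher for peaks in the clusters than for the rest of the list. The median scores inside and outside were 209.9 and 138 in induced replicate 1, 167 and 123.0 in induced replicate 2, 146 and 91.4 in uninduced replicate 1, and 150.1 and 97.5 in uninduced replicate 2. The scores are the authors' own, on a scale that the labels and files do not state. Peaks in clusters were also wider, with medians of 1075 bp inside and 954 bp outside in induced replicate 1 and of 1025 and 892 bp in uninduced replicate 1.

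A second way of counting gave each library its own clusters by the same rule and so favoured neither condition in the choice of regions. Induced replicates 1 and 2 then formed 3512 and 2595 clusters, and uninduced replicates 1 and 2 formed 503 and 1339. The largest cluster held 44 and 32 peaks after induction and 13 and 19 before it. When only the 31960 best-scoring peaks of each library were stitched, as many as the shortest list holds, the numbers of clusters were 955 and 916 against 503 and 813. Both induced libraries stayed above both uninduced ones at equal list length, with 935.5 ± 27.6 clusters against 658 ± 219 (mean ± SD, n = 2 each), an exact two-sided permutation p of 0.333. The ratio was 3.32 with the full lists and 1.42 at equal length. The spread of the uninduced libraries at equal length came near to the difference between the means. Uninduced replicate 1 was the shortest list and kept its weakest peaks, while the other lists lost theirs. Equal length thus did not treat the libraries alike. Among the lists that were cut, 955 and 916 induced clusters stood against 813 in uninduced replicate 2.

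To tell which clusters existed before induction, each was classed by its peaks in the uninduced libraries. A cluster was called established with 5 or more peaks in both uninduced libraries, seeded with at least 1 peak in both but without 5 in both, found in 1 library with peaks in only 1 of them, and empty with none in either. There were 770 established clusters (20.5%), 2669 seeded (71.2%), 247 found in 1 library (6.59%) and 62 empty (1.65%). The merged uninduced list held 5 or more peaks in 1460 clusters (39.0%) and none in 99. Among the 247 clusters found in 1 library, uninduced replicate 2 had the peaks in 222 and uninduced replicate 1 in 25. The number of established clusters depends on uninduced replicate 1, the shorter list: it held 5 or more peaks in 829 clusters and uninduced replicate 2 in 1584.

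The classes differed in size, in part by definition, since they were cut on the number of uninduced peaks in a cluster. Established clusters had a median span of 61.0 kb and a median of 12 merged induced peaks, with means of 13.1 and 11.7 induced and 6.89 and 9.03 uninduced peaks. Seeded clusters had a median span of 32.2 kb and means of 6.69 and 5.68 induced and 2.46 and 3.84 uninduced peaks. Empty clusters were short and small, with a median span of 24.9 kb, means of 4.76 and 3.58 peaks in the induced libraries, and at most 8 merged peaks. Their highest-scoring merged peak had a median score of 479, against 1605 in seeded and 2875 in established clusters. Of the 62 empty clusters, 57 had no peak in the merged uninduced list either.

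**Figure D1:**
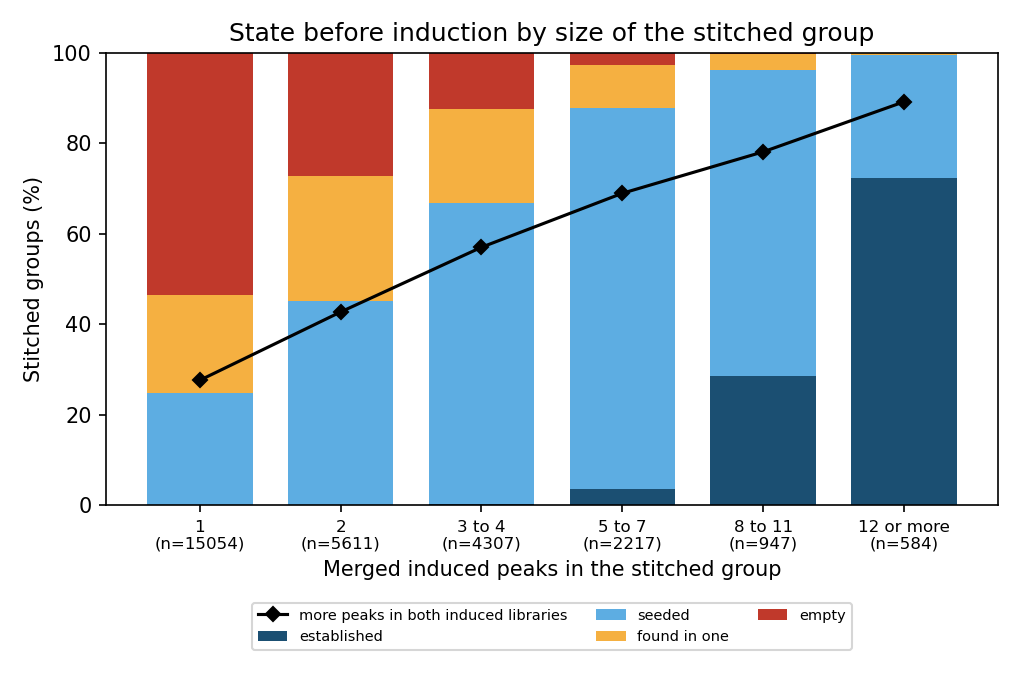
State before induction of the stitched groups of the merged induced list, by the number of peaks in the group (x axis, number of groups in brackets). Stacked bars give the percent of groups that were established, seeded, found in 1 uninduced library or empty, and the black line gives the percent with more peaks in both induced than in both uninduced libraries, which runs from 27.6% of single peaks to 89.2% of groups of 12 or more.

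Larger groups were less often empty. No peak of either uninduced library lay in 53.6% of the single merged peaks, in 27.2% of groups of 2, in 12.3% of groups of 3 to 4, in 2.71% of clusters of 5 to 7 and in 2 of the 947 clusters of 8 to 11. None of the 584 clusters of 12 or more was empty, and 72.3% of them were established. A group with more positions has more chances to hold an uninduced peak, so this order follows in part from size. Counted per merged peak, uninduced replicate 1 had 0.294 peaks among single peaks, 0.364 in clusters of 5 to 7 and 0.403 in clusters of 12 or more, and uninduced replicate 2 had 0.431, 0.556 and 0.589. The induced libraries had the same order, with 0.855, 0.948 and 0.970 in replicate 1 and 0.728, 0.810 and 0.843 in replicate 2. Larger groups also span the gaps between their positions, where peaks count too. Of the positions themselves, 24.7% of single peaks, 31.2% of those in clusters of 5 to 7 and 34.4% of those in clusters of 12 or more had a peak in both uninduced libraries. The median score of the merged induced peaks had the same order, with 138, 236 and 287.

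Growth was counted as more peaks in both induced than in both uninduced libraries. By this measure 2790 clusters (74.4%) had grown, beside 41.1% of all stitched groups. Fewer peaks in both induced than in both uninduced libraries were found in 2 clusters, beside 0.578% of all groups. The choice of groups on induced peaks works against such falls. The share that had grown was 73.9% of established, 73.1% of seeded and 83.8% of clusters found in 1 library. All 62 empty clusters count as grown by construction. Class and growth use the same uninduced counts, so the shares of the other classes are not independent of their definition either. Clusters found in 1 library had means of only 0.142 and 1.92 peaks in uninduced replicates 1 and 2, which makes growth easier to reach. The mean of the induced libraries exceeded that of the uninduced ones by a median of 3 peaks per cluster (quartiles 2 and 4.5, range -2 to 26.5). In 1783 clusters (47.6%) it was at least 2 times as high, grown or not. The same held for 60.3% of all stitched groups, counting those with induced but no uninduced peaks, so the clusters' share was below that of all groups.

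Of the 958 clusters that had not grown, 638 were ties between the lower induced and the higher uninduced library, and in 872 the induced mean was still above the uninduced mean. Uninduced replicate 2 reached the lower induced number in 898 of them and uninduced replicate 1 in 239. The 2 clusters with fewer peaks after induction, named after their values were seen, lay at chromosome 7, 117983434 to 118004337, with 3 and 2 induced and 4 and 5 uninduced peaks, and at chromosome 8, 9401714 to 9449866, with 4 and 4 induced and 5 and 6 uninduced peaks. By covered length instead of peak number, 3469 clusters (92.6%) were higher in both induced libraries, beside 63.1% of all groups.

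**Figure D2:**
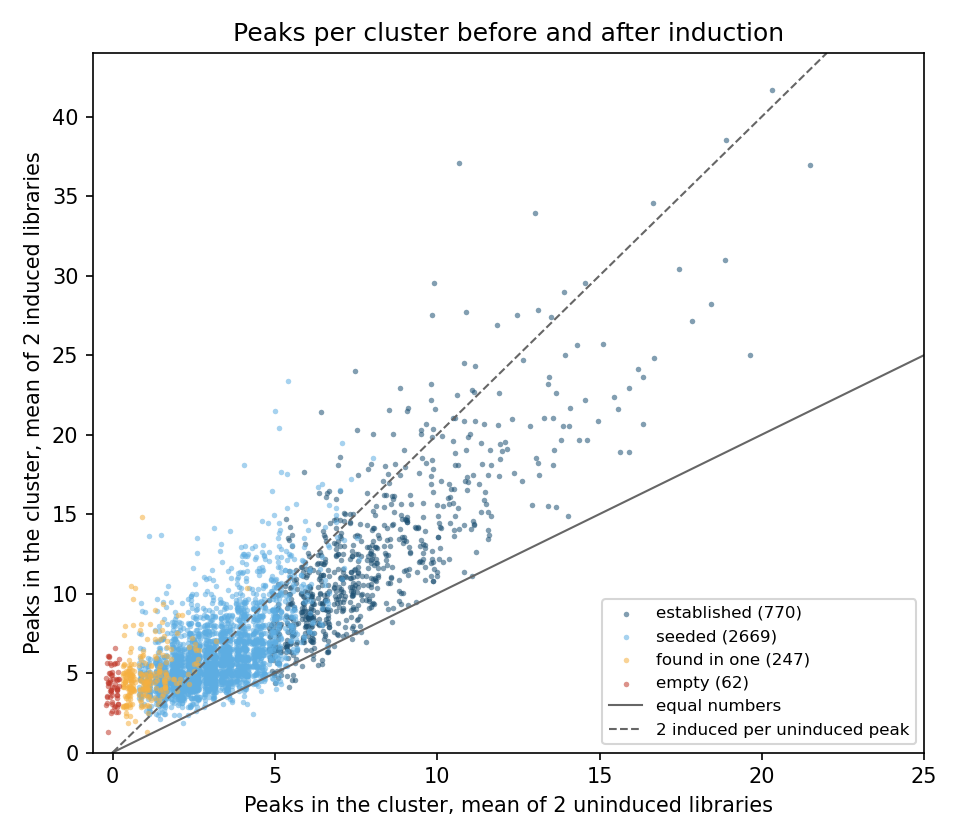
Peaks per cluster, as the mean of the 2 uninduced libraries (x axis) and of the 2 induced libraries (y axis), 1 point per cluster, coloured by state before induction and shifted by a small random amount to separate ties. The solid line marks equal numbers and the dashed line 2 induced peaks per uninduced peak; most of the 3748 clusters lie above the solid line, and 1783 lie on or above the dashed one.

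The growth count depended on list length. With peaks counted as a share of their own list, 1339 clusters (35.7%) were higher in both induced libraries, beside 30.6% of all groups, and 662 (17.7%) were lower in both, beside 20.3%. With lists of equal length, 1126 clusters (30.0%) had more peaks in both induced libraries, beside 14.2% of all groups, and 275 (7.34%) had fewer, beside 7.21%. The clusters then held 16096 and 15782 peaks of the induced and 11901 and 14556 of the uninduced libraries, a ratio of 1.20. All stitched groups together held 31957 and 31956 peaks of the induced and 24692 and 29735 of the uninduced libraries. An excess of induced peaks at equal length was therefore not particular to the clusters. Cutting the lists by score raised their shares in the clusters, from 43.4 to 50.4% and from 44.4 to 49.4% in induced replicates 1 and 2. The share rose from 41.2 to 45.5% in uninduced replicate 2. Uninduced replicate 1, the shortest list, was not cut and stayed at 37.2%, so equal length did not treat the libraries alike. More positions per group also make a difference easier to count, so a share above that of all groups does not single out the clusters.

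A library that had no part in choosing the clusters gave a count of induced peaks outside the rule. The other library of the same condition still chose them, so the choice still favours regions with induced peaks. When induced replicate 1 alone was stitched, its 3512 clusters held 23437 peaks of induced replicate 2, against 11159 and 16565 peaks of uninduced replicates 1 and 2, a ratio of 1.69 beside 1.53 for the whole lists. In 2655 of them (75.6%) induced replicate 2 had more peaks than both uninduced libraries, beside 43.8% of all stitched groups of that list. When induced replicate 2 was stitched, its 2595 clusters held 19803 peaks of induced replicate 1 against 8780 and 13013, a ratio of 1.82, the same as for the whole lists. The share with more peaks was 85.3%, beside 50% of all groups. So the first choice of clusters gave a ratio above that of the whole lists and the second did not.

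Most clusters had bound and unbound positions side by side before induction. Of the 30853 member positions, 10156 (32.9%, 95% Wilson interval 32.4 to 33.4%) had a peak in both uninduced libraries, beside 29.2% of all merged induced peaks. A further 7013 (22.7%) had a peak in 1 uninduced library, which was replicate 2 in 86.4% of cases, and 13684 (44.4%) had none. Uninduced replicate 1 had a peak at 36.0% of positions and uninduced replicate 2 at 52.6%. Positions called in both induced libraries and missed in both uninduced ones numbered 7288 (23.6%), beside 25.3% of all merged induced peaks. By cluster, 2602 (69.4%) had 2 or more positions bound in both uninduced libraries, 765 had 1 and 381 had none. At least 1 position without any uninduced peak was found in 3644 clusters (97.2%), and every position was bound in both uninduced libraries in 3. Positions without an uninduced peak were common in the whole list too, at 48.0% of all merged induced peaks. A cluster with many positions is therefore likely to hold one and unlikely to be bound throughout, so these counts by cluster follow in part from size. They were not made for the smaller stitched groups and do not single out the clusters.

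Positions bound before induction were the stronger ones after it. The median score in the merged induced list was 852 for positions with a peak in both uninduced libraries (quartiles 375 and 1764), 346 for those with a peak in 1, and 115 for those with none (quartiles 72.0 and 218). Their median widths were 1465, 1193 and 1035 bp. Ranked by score within its cluster, the leading position had a peak in both uninduced libraries in 71.8% of clusters and in neither in 7.20%. It had one in uninduced replicate 1 in 72.6% and in uninduced replicate 2 in 92.0%. The position of rank 2 was bound in both in 53.9%, that of rank 3 in 41.9%, that of rank 5 in 22.0% and those of rank 8 and lower in 12.8%. The leading position had a peak in both uninduced libraries in 93.4% of established and 73.9% of seeded clusters. The classes were cut on peaks of the same libraries, so this order is in part set by their definition. Clusters found in 1 library and empty clusters can have no such position. In 116 clusters 2 or more positions tied for the highest score; in 101 of these every tied position was bound in both uninduced libraries, and in 1 none was.

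**Figure D3:**
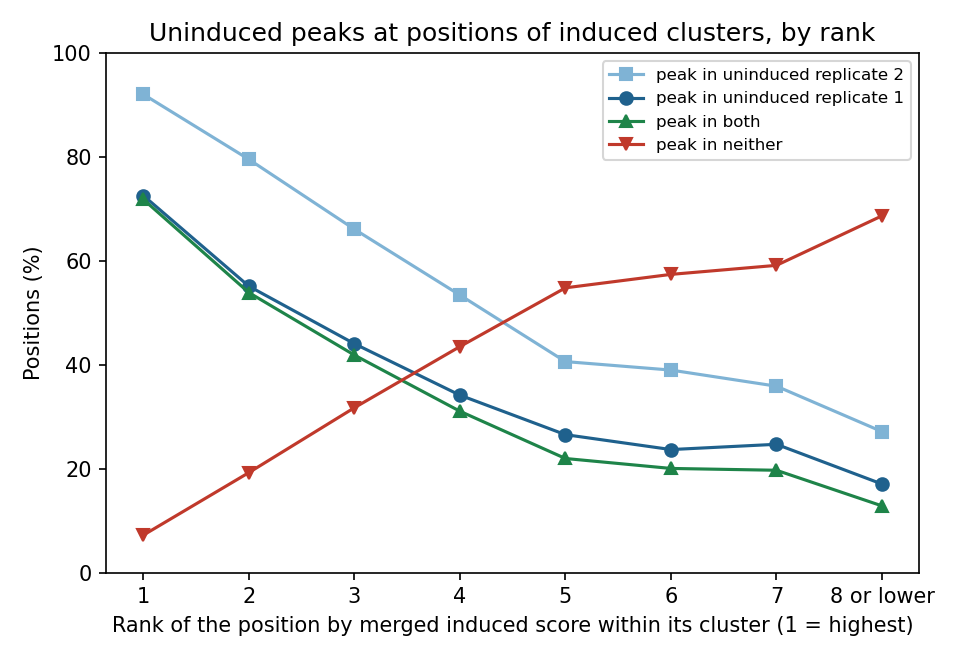
Percent of cluster positions (y axis) with a peak in uninduced replicate 1, in uninduced replicate 2, in both and in neither, by the rank of the position's score within its cluster in the merged induced list (x axis, 1 is the highest). The share bound in both runs from 71.8% at rank 1 to 12.8% at rank 8 and lower, and the share bound in neither from 7.20% to 68.7%.

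The position that led a cluster before induction led it after induction in many but not all clusters. Taking clusters with 5 or more peaks in both libraries of a pair, the highest peaks of the 2 induced libraries overlapped in 84.1% of 2579 clusters, and those of the 2 uninduced libraries in 61.6% of 770 (95% Wilson interval 58.1 to 64.9%). The highest peak of uninduced replicate 2 overlapped that of induced replicate 1 in 61.0% of 1566 clusters and that of induced replicate 2 in 61.1% of 1518. For uninduced replicate 1 these shares were 42.3% of 823 and 40.4% of 816. Uninduced replicate 2 thus shared its leading positions with the induced libraries about as often as with its own replicate, and uninduced replicate 1 less often. These pairs share libraries and rest on different clusters, and they were not tested against each other.

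Clusters held more of the strong peaks of the merged induced list than of the weak ones, with 58.9% of the peaks in the highest score decile and 34.0% of those in the lowest. The higher share of positions bound before induction in clusters, 32.9% against 26.4% of the other peaks, was close to what this score difference gives: the other peaks, weighted to the clusters' score deciles, had a share of 32.5%. Within deciles the order of the 2 sets turned. In the lowest decile 3.53% of member peaks (95% Wilson interval 2.87 to 4.34%) and 7.86% of the others (7.12 to 8.66%) had a peak in both uninduced libraries. In the highest decile the shares were 82.0% (80.8 to 83.1%) and 75.2% (73.6 to 76.7%). Both uninduced libraries showed this turn, with 7.51% of members and 14.0% of others in the lowest and 82.2% and 75.3% in the highest decile for replicate 1, and 9.20% and 15.0%, then 98.5% and 97.5%, for replicate 2. Peaks are not replicates, so these shares describe the lists and carry no test.

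**Figure D4:**
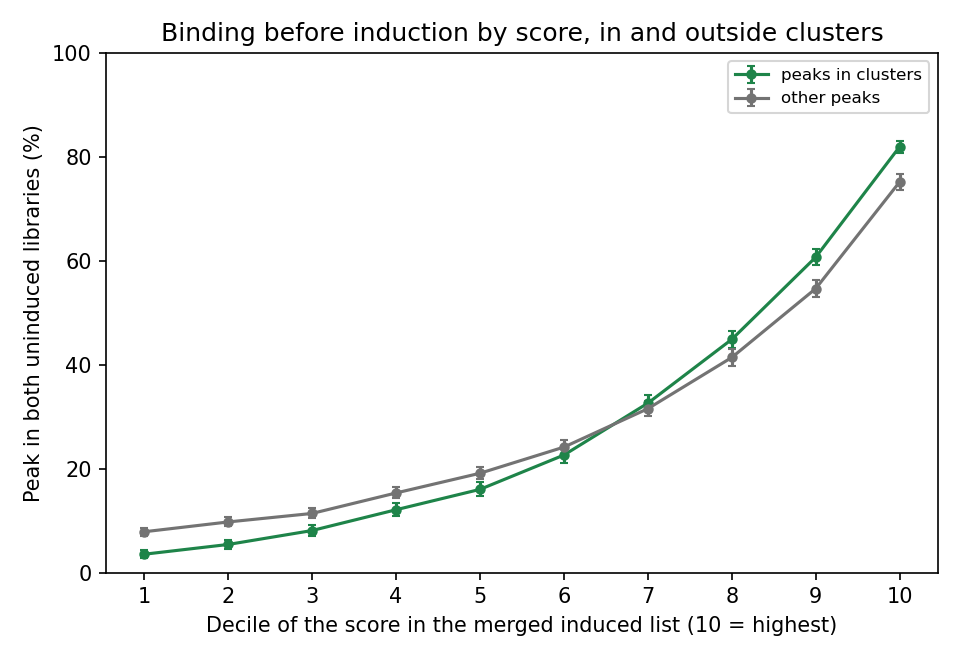
Percent of merged induced peaks with a peak in both uninduced libraries (y axis), by decile of their score in the merged induced list (x axis, 10 is the highest), for peaks in clusters and other peaks; bars are 95% Wilson intervals. Member peaks are lower than the others in the lowest decile (3.53% and 7.86%) and higher in the highest (82.0% and 75.2%).

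Positions without an uninduced peak lay both between and beyond the bound ones. In the clusters with 2 or more positions bound in both uninduced libraries, 4818 unbound positions (51.3%) lay between the outermost bound ones and 4581 lay outside them. The distance from an unbound position to the nearest bound one in its cluster had a median of 6.31 kb (quartiles 2.34 and 12.3 kb), and 43.2% were within 5 kb. The 2 end positions of a cluster were bound in both uninduced libraries in 31.0% of cases and the inner ones in 33.5%, with median scores of 218 and 270. The leading position was at an end in 26.0% of clusters.

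Stitching the merged uninduced list by the same rule showed how many clusters covered several separate groups of that list. It formed 26744 groups, of which 1186 were clusters of 5 or more peaks with a median span of 31.9 kb, and these held 17.5% of its peaks. More peaks in both induced than in both uninduced libraries were found in 436 of the 1186 (36.8%), beside 6.58% of all 26744 groups. Fewer peaks in both induced libraries were found in 27 (2.28%), beside 10.7% of all groups, so among all groups falls outnumbered gains. Those groups were chosen on uninduced peaks, which favours falls. Most of them were smaller than a cluster, which leaves less room for a gain. Of the uninduced clusters, 1108 (93.4%) overlapped an induced cluster, and of the induced clusters, 1075 (28.7%) overlapped an uninduced one. An induced cluster covered exactly 1 uninduced group in 2018 cases (53.8%), 2 in 1282, 3 in 261, 4 or more in 88 and none in 99. Thus 1631 clusters (43.5%) joined 2 or more uninduced groups, and the most in 1 cluster was 7. The merged uninduced list is shorter, with 44233 peaks against 71582, and fewer peaks leave wider gaps that split a region into more groups. These overlaps were not counted at equal list length or for the smaller stitched groups, so they do not single out the clusters.

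The largest cluster lay at chromosome 7, 134203227 to 134458364, and spanned 255 kb. It held 44 and 39 peaks in induced replicates 1 and 2 and 18 and 23 in uninduced replicates 1 and 2. Peaks covered 56.9 and 46.2 kb of it after induction and 20.0 and 25.5 kb before. Of its 44 positions, 14 were bound in both uninduced libraries, 10 in 1 and 20 in neither, and it joined 7 uninduced groups. The induced and uninduced numbers did not overlap, and the 3 highest-scoring positions were all bound before induction.

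The cluster at chromosome 11, 114848634 to 115054185, also had 44 positions, with 40 and 37 induced and 14 and 24 uninduced peaks. Uninduced replicates 1 and 2 differed by 10 peaks there, and both were below the induced libraries. The cluster at chromosome 6, 133976267 to 134156097, held 40 and 34 induced and 19 and 24 uninduced peaks and had the most positions bound in both uninduced libraries among the 10 largest, 16 of 41. The cluster at chromosome 13, 41521391 to 41730605, held 39 and 30 induced and 14 and 19 uninduced peaks and joined 7 uninduced groups.

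The largest gain of all clusters was at chromosome 3, 88960548 to 89201207, where 39 and 35 induced peaks stood against 8 and 13 uninduced ones, a difference of 26.5 between the means, or 14.5 at equal list length. Peaks covered 66.9 and 56.0 kb of its 241 kb after induction and 10.1 and 13.8 kb before. Only 7 of its 41 positions were bound in both uninduced libraries and 27 in neither. Its leading peak, at 89194075 to 89201207, was among the 7 bound in both. The cluster lies in the segment of chromosome 3 from 85 to 120 Mb, described further on.

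The other 5 of the 10 largest clusters were established too and had grown, as had 89.2% of all clusters of 12 or more peaks. At chromosome 10, 128001552 to 128245219, there were 34 and 34 induced and 12 and 14 uninduced peaks. At chromosome 2, 3512922 to 3717545, there were 33 and 26 induced and 13 and 16 uninduced peaks. At chromosome 19, 34538515 to 34737882, there were 31 and 24 induced and 9 and 11 uninduced peaks, and 22 of the 33 positions were bound in neither uninduced library. At chromosome 17, 35872648 to 36017405, there were 31 and 31 induced and 17 and 21 uninduced peaks in 145 kb. At chromosome 9, 50237971 to 50376302, the induced libraries had 34 and 27 peaks and the uninduced ones 11 and 24, and with lists of equal length the difference between the means turned to -0.5. The leading position had a peak in both uninduced libraries in all 10 of the largest clusters, beside 93.4% of all established clusters. Equal list length lowered the difference between the means by more than 1.5 times in each of the 10. It went from 21 to 7.5 on chromosome 7, from 19.5 to 7.5 on chromosome 11, from 15.5 to 7 on chromosome 6 and from 18 to 4.5 on chromosome 13. It went from 21 to 6.5 on chromosome 10, from 15 to 2 on chromosome 2, from 17.5 to 9.5 on chromosome 19 and from 12 to 2.5 on chromosome 17. Except on chromosome 9, it stayed above 0.

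**Figure D5:**
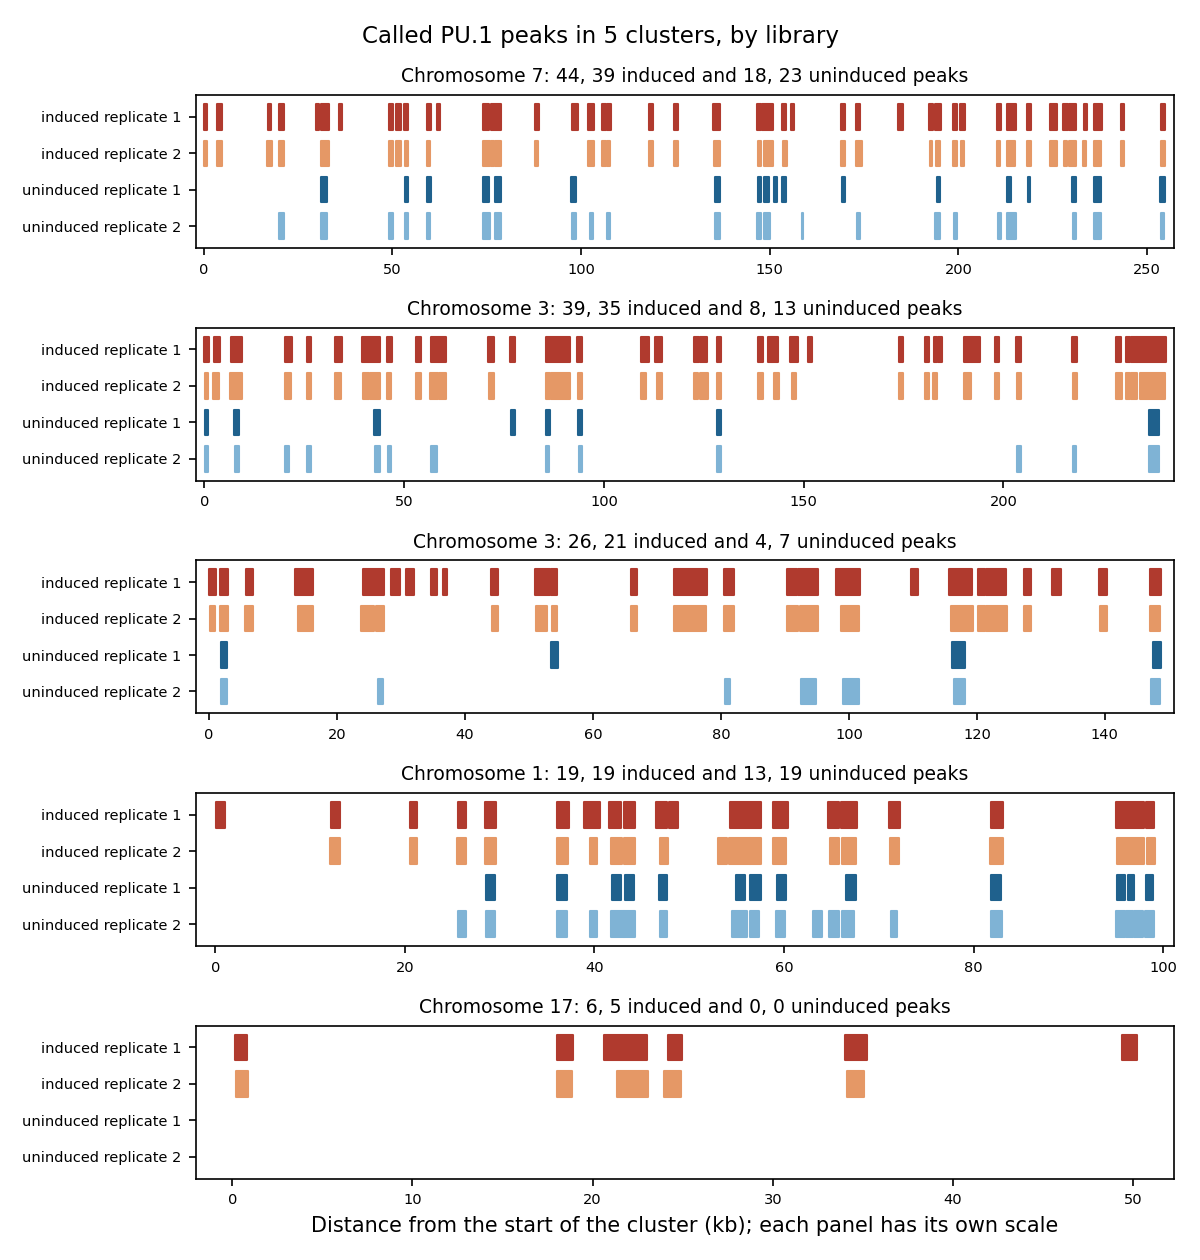
Called peaks (bars, to scale) of the 4 libraries in 5 clusters, by distance from the start of the cluster in kb: the largest cluster, the cluster with the largest gain, the largest seeded cluster, an established cluster that had not grown, and an empty one. Uninduced peaks lie at some of the induced positions in the first 3 panels, at most of the positions in the fourth (of 20 positions, 11 bound in both uninduced libraries, 4 in 1 and 5 in neither), and are absent from the last.

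The largest seeded clusters had few uninduced peaks. At chromosome 3, 95949764 to 96098571, uninduced replicates 1 and 2 had 4 and 7 peaks and the induced libraries 26 and 21, and peaks covered 48.7 and 38.6 kb after and 5.27 and 10.4 kb before induction. At chromosome 10, 53064246 to 53190678, the numbers were 4 and 6 before and 26 and 17 after. At chromosome 6, 108636480 to 108735516, they were 3 and 7 before and 22 and 19 after, with 1 position bound in both uninduced libraries, the leading one. At chromosome 19, 32786183 to 32880486, they were 2 and 6 before and 20 and 16 after. At chromosome 4, 136877930 to 136995820, they were 4 and 9 before and 18 and 15 after. In each of these 5 clusters both induced libraries were above both uninduced ones, as in 73.1% of all seeded clusters and 41.1% of all stitched groups. Seeded clusters hold fewer than 5 peaks in at least 1 uninduced library by definition. These 5 were also picked for their many merged induced peaks, so the result is largely set by the choice. At equal list length the differences between the means, in the same order, went from 18 to 11, from 16.5 to 3, from 15.5 to 7, from 14 to 6.5 and from 10 to 3.5.

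The empty clusters with the most positions were modest. At chromosome 17, 87824011 to 87874284, the induced libraries had 6 and 5 peaks, and the leading peak at 87844662 to 87847159 scored 1020. At chromosome 13, 99970888 to 100012862, they had 7 and 6 peaks, with a leading score of 508. Those at chromosome 18, 68092427 to 68155952 (6 and 4 induced peaks), chromosome 8, 127607506 to 127650242 (5 and 6), and chromosome 16, 5295012 to 5335251 (5 and 4), had leading scores of 480, 383 and 549. No uninduced library had a peak in any of the 5, and the merged uninduced list had 1 in the cluster on chromosome 18 and none in the others. The 5 differences between the means, 4.5 to 6.5 peaks, were 2 to 2.5 at equal list length. An absent peak means that none passed the authors' threshold.

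The 5 largest established clusters that had not grown varied in how many positions were bound before induction. At chromosome 1, 92894674 to 92993806, both induced libraries had 19 peaks and uninduced replicates 1 and 2 had 13 and 19, and at equal list length the difference between the means turned from 3 to -0.5. At chromosome 4, 88386980 to 88477116, they had 19 and 17 against 9 and 17, and only 2 of its 19 positions lacked any uninduced peak. At chromosome 13, 99625374 to 99739197, they had 16 and 17 against 7 and 16, and at chromosome 18, 4233094 to 4337038, 17 and 14 against 11 and 16. In the last of these the difference between the means was 2, turning to -0.5 without uninduced replicate 1 and to -4.5 at equal list length. The cluster at chromosome 3, 103575530 to 103700940, had 22 and 14 against 7 and 14, and 11 of its 24 positions lacked any uninduced peak. At equal list length its difference went from 7.5 to 3, that of the cluster on chromosome 13 from 5 to 1.5 and that of the cluster on chromosome 4 from 5 to 4. In each of these 5 clusters uninduced replicate 2 reached the lower induced number, and uninduced replicate 1 did not.

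The share of a chromosome's merged induced peaks that lay in clusters ran from 17.0% on X, with 31 clusters, to 57.6% on chromosome 19, with 164. It was 50.5% on chromosome 11 and 49.5% on chromosome 7. Chromosome 19 also had the highest share of grown clusters, 148 of 164 (90.2%), and the highest ratio of induced to uninduced peaks, 2.17 from 1479 and 1271 induced and 520 and 745 uninduced peaks. Chromosome 3 followed at 2.17 and 79.7%, and the other chromosomes had ratios of 1.77 (chromosome 7) to 1.95 (X). On chromosome 3 the clusters of the segment from 85 to 120 Mb, chosen from earlier results of these data for its shift, had higher values: 81 of 89 had grown (91.0%), and 817 and 708 induced peaks stood against 257 and 323 uninduced ones, a ratio of 2.63. The other 83 clusters of the chromosome had a ratio of 1.74 and 67.5% had grown. Without that segment and chromosome 19, 73.3% of the 3495 clusters left had grown and the ratio was 1.83. Growth and ratios by chromosome were counted for clusters only. They were not counted for all stitched groups or all peaks of a chromosome or segment, so they do not single out the clusters there.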

How the data were processed

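PU.1 peaks of 2 induced and 2 uninduced ChIP-seq libraries and 1 merged list per condition were used; the 2 input libraries were not analysed here. Named in the submitters' processing notes, without their roles, are MACS 1.4.1, Bowtie, Trim Galore and build mm9. Each deposited peak has a score, the authors' own value, with a minimum of 50 and on an unstated scale; scores were compared only within a list. How replicates were merged, and whether an input served in peak calling, are not given in these sources.

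Peaks were stitched and counted with Python 3.11.15, NumPy 2.4.6, pandas 2.3.3, SciPy 1.17.1 and matplotlib 3.10.9. A peak counted as inside a cluster, or as bound at a position, with an overlap of at least 1 bp. An exact permutation test (two-sided) compared libraries; shares have 95% Wilson intervals. Clusters named are the 10 with the most merged induced peaks (ties by span), and the 5 largest empty, seeded, and established ones that had not grown. Planned gene lists and motifs were not run, since they need an annotation or sequence of mm9. Members, classes and tests were chosen with earlier results of these data known. Alternatives were other gaps and cluster sizes, scores of at least 100, equal list lengths, an overlap of 50%, each library left out in turn and a replicate block. Added after seeing the data were clusters chosen on other lists, peaks as a share of the list, score deciles, each library stitched by itself and alternatives for named clusters. On 200 simulated clusters the functions gave back every class and the growth count, which checks only the code.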

Additional observations from a re-analysis of the deposited data

How the results depend on the processing

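The ratio of induced to uninduced peaks and of covered length in clusters stayed above 1 under every alternative run, while the counts of clusters moved with the rule. With a gap of 5 kb there were 1554 clusters, 171 established, 1233 seeded, 18 empty and 1087 grown. With a gap of 25 kb, 1367 were established. With at least 8 peaks there were 1531 clusters, 801 seeded, 2 empty and 1261 grown. With scores of at least 100 there were 2263 clusters, 245 established, 1742 seeded and 1681 grown. With lists of equal length, 96 were empty and 1126 grown. The merged induced list limited to the length of the merged uninduced list gave 1792 clusters. By the merged uninduced list, 1460 clusters were established. Of clusters chosen on the merged uninduced list, 436 of 1186 (36.8%) had grown, beside 6.58% of all 26744 groups of that list. Fewer peaks in both induced libraries were found in 27 of these clusters (2.28%), beside 10.7% of those groups. A choice on uninduced peaks favours such falls. The ratio of 1.29 in these clusters is below the 1.67 of the whole lists. As a share of each list, the induced libraries were thus lower in these clusters. With peaks as a share of each list, 1339 of the main clusters had grown. The share of positions bound before induction was 24.3% with an overlap of 50%. It was 3.53% in the lowest and 82.0% in the highest score decile.

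Leaving out a library (an induced one also leaves its peaks out of the stitching) gave 2595 to 3512 clusters, 587 to 1584 established, 1870 to 2635 seeded, 22 to 284 empty and 2257 to 3509 grown clusters. The share of positions bound before induction ran from 34.1 to 52.6%, the ratio of peaks from 1.55 to 2.31 and that of covered length from 1.82 to 2.58. Without uninduced replicate 1, the shorter list, 1584 clusters were established and 52.6% of positions bound, and without uninduced replicate 2, 284 clusters were empty; classes then rest on 1 library.

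The replicate numbers are not stated to pair the libraries. With a replicate block, 2896 clusters had grown, the ratios were 1.89 and 2.15, and the exact paired test gave p = 0.5, the smallest that 2 pairs allow. The deviations of same-numbered libraries had a correlation of -0.095 over the 3748 clusters.

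Of the 175 alternative values for the 25 named clusters, 123 moved by less than the spread between replicates, 48 by that spread or more, and 4 reversed. At equal list length, 24 of the 25 differences were smaller by more than 1.5 times. The exception was chromosome 4 from 88386980, which went from 5 to 4. The reversals were, with lists of equal length, chromosome 9 from 50237971 (-0.5), chromosome 1 from 92894674 (-0.5) and chromosome 18 from 4233094 (-4.5), the last also without uninduced replicate 1 (-0.5; 4.5 without uninduced replicate 2). The cause was not tested.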
